A study of Mus musculus with 167 samples.

Results

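miR-31 was measured in the red blood cell fraction (RBC), the white blood cell fraction (WBC), lung, heart and brain of C3Hf/Sed/Kam (C3H) and C57Bl/6 (C57) mice. It was chosen because earlier results of these data showed a strain difference in RBC, and its 2 members are the rows of its mature arms, mmu-miR-31-5p and mmu-miR-31-3p, out of 1915 miRNA rows in each count table. The values that chose it, the strain difference of its RBC levels, are given here as a description with no test, and WTLI and sex, which did not enter the choice, were tested within strains. Strain differences in the other tissues were also tested. They come from the same mice as the RBC levels, so they are not independent of the choice.

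As young adults the mice either had the whole thorax irradiated (whole thorax lung irradiation, WTLI) or were sham irradiated, and tissues were collected at month 4 in C3H and at month 6 in C57 from mice that had reached that endpoint. There were 8 sham irradiated and 7 WTLI mice of C3H, all female, and 15 sham irradiated (8 male, 7 female) and 5 WTLI (4 male, 1 female) mice of C57. All 35 mice gave lung, heart, brain and RBC libraries, and 27 of them gave a WBC library (5 sham and 6 WTLI of C3H, 11 sham and 5 WTLI of C57). No allele or further treatment is given for any group. Strain and month cannot be told apart, strain and sex overlap, and mice that died before the endpoint gave no library. Samples also carry a letter A or B whose meaning is not given. The solid tissues were taken after perfusion with buffer, and RBC and WBC were centrifuged fractions of blood drawn from the heart at the end.

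MicroRNAs are short RNAs that guide Argonaute proteins to messenger RNAs, mainly through a seed near the 5′ end, and lower the stability or translation of those targets. A hairpin precursor is cut into a 5p and a 3p arm, of which usually 1 is kept in Argonaute and the other is degraded. miR-31 is known from epithelia, where it acts in skin and hair follicle growth, and from T lymphocytes, where it targets Foxp3, the transcription factor of regulatory T cells. Mature erythrocytes of mammals have no nucleus and carry the small RNAs they inherited from their precursors.

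Both arms and the hairpin they come from are shown because the count tables are counts of exactly these mature sequences. In RefSeq on GRCm38.p6 the Mir31 hairpin lies on the minus strand at chr4:88910557-88910662, 106 bases long. In the GENCODE annotation that place is inside exon 3 of the lincRNA gene AL805899.1, with Ifne, Mtap, Cdkn2a and Cdkn2b nearby. The 5p arm is 22 bases long at chr4:88910614-88910635, and the 3p arm is 23 bases long at chr4:88910577-88910599. In the arms the capitals mark the seed, bases 2 to 8, and in the hairpin they mark the arms.
mmu-miR-31-5p: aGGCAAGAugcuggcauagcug
mmu-miR-31-3p: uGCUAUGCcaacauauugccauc
Mir31 hairpin: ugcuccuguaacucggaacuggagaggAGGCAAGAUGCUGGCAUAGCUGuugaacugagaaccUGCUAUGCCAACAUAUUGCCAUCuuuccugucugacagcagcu
Among the 1679 mature mouse sequences in RefSeq, 0 others share either seed, and the closest sequence to miR-31-5p, miR-449c-5p, is 6 edits away.

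The libraries held between 1794995 and 7865102 miRNA counts each. A filter on low counts left 229 miRNAs to test in RBC, 291 in WBC, 433 in brain, 350 in lung and 312 in heart. miR-31-5p passed the filter in every tissue, with at least 235 counts in every library, and miR-31-3p passed it in lung, heart and brain. Levels are given as RPM, a miRNA's count scaled to a library total of 10 to the power 6, with the SD over mice. Tissue labels fitted the brain and heart markers: miR-124-3p, a neuronal miRNA, was at 921 to 5927 RPM in brain and at most 27.2 RPM elsewhere, and miR-1a-3p, a cardiac and skeletal muscle miRNA, had a median of 227579 RPM in heart against 4544 RPM in lung. The blood fractions overlapped in the summed levels of their marker lists. The erythrocyte list (both arms of miR-144, miR-486a-5p and miR-451a) summed to 28566 to 106323 RPM in RBC and 17913 to 106907 RPM in WBC, and the leukocyte list to 8203 to 45244 RPM in RBC and 10623 to 33447 RPM in WBC. Most of the leukocyte sum was miR-142a-5p and miR-142a-3p, and the rarer members averaged higher in WBC than in RBC of C57 sham mice, with miR-223-3p at 1481 and 151 RPM, miR-150-5p at 486 and 136 RPM and miR-155-5p at 40.9 and 4.99 RPM. In C3H sham mice the gap was smaller, with miR-223-3p at 303 and 106 RPM, miR-150-5p at 246 and 80.5 RPM and miR-155-5p at 9.97 and 4.50 RPM. In RBC, the C3H WTLI replicates 6 and 7 (robust z 2.60 and 3.72) and, at the other end, the C57 sham replicate 13 (-2.73) stood apart on the first principal component, so RBC results are given with and without them. In brain, the C57 sham replicates 13 to 15, the females of letter B, stood apart (robust z 2.99 to 4.67), as did the C57 WTLI replicate 5, also a female of letter B. Nearer to the rest but as far out as the RBC replicate 6 were the C3H WTLI replicate 2 in brain (2.68) and the C3H sham replicate 3 in heart (-2.63).

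In RBC of sham irradiated mice miR-31-5p was about 5 times as abundant in C3H as in C57. Over 8 C3H sham libraries it ranged from 413 to 693 RPM with a median of 545 RPM, and over 15 C57 sham libraries from 65.1 to 144 RPM with a median of 101 RPM. Every C3H library lay above every C57 library, with a wide gap between the strains. The means were 556 ± 89.1 RPM (n = 8) and 107 ± 25.1 RPM (n = 15), a fold of 5.18. Without the C57 replicate 13 the fold was 5.31. In fractions of bulk blood, fewer cells of a type and less RNA per cell cannot be told apart.

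By mean level miR-31-5p was 46th of 601 detected miRNAs in C3H sham RBC and 76th of 718 in C57 sham RBC. It took 0.0556% of the counts in C3H and 0.0107% in C57. With miR-16-5p, the most abundant miRNA of the fraction, left out of the totals, the means were 866 RPM in C3H and 208 RPM in C57, a fold of 4.17; miR-16-5p itself took 35.4% of counts in C3H and 48.5% in C57. After quantile normalisation of the 229 RBC miRNAs the strain difference of miR-31-5p was 2.18 on the log2 scale (SE 0.17), and over 46 fits, with other settings or a library left out, it lay between 2.08 and 2.40.

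Because every C3H mouse was female, the C57 sexes were also taken apart. The 7 C57 sham females had 85.7 to 144 RPM with a median of 130 RPM, and the 8 C57 sham males 65.1 to 118 RPM with a median of 90.6 RPM. The sexes of C57 overlapped, and both lay below the lowest C3H library. Against C57 females alone the C3H sham mean was 4.42 times as high.

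The strain difference of miR-31-5p was the 5th in size among the 229 miRNAs of RBC, where 10.5% of miRNAs were called in the same contrast and 9 of 229 (3.93%) had no overlap between the strains in RPM. Just above it stood miR-9-5p, a neuronal miRNA, with a difference of 2.73 on the log2 scale, and miR-122-5p, a liver miRNA, with 2.24. miR-122-5p rested on a few libraries, at 643 ± 1441 RPM in C3H sham (n = 8) and 14.7 RPM on average in C57 sham. Just below it stood miR-1981-5p at -2.05 and miR-99a-5p at -2.01 on the log2 scale, both lower in C3H and both under 15 RPM on average in either strain. In the same ranking of sham strain differences miR-31-5p was 40th of 291 in WBC, 214th of 350 in lung, 299th of 312 in heart and 233rd of 433 in brain.

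Marker lists of the cells the RBC fraction could hold are given beside this difference. The erythrocyte list summed to 46232 to 74660 RPM in C3H sham and 31039 to 106323 RPM in C57 sham, and the leukocyte list to 19776 to 36641 RPM and 17656 to 45244 RPM. By the threshold used elsewhere (adjusted p under 0.05 and a difference of at least 1.17 on the log2 scale), 0 of 4 erythrocyte, 0 of 5 leukocyte and 0 of 4 platelet markers were called between strains, with median differences of 0.04, -0.54 and -0.07 on the log2 scale, where all 229 miRNAs had a median of 0.01. Of the epithelial list 2 of 5 members were tested and 0 called (median 0.35), of the keratinocyte list 2 of 2 were tested and 0 called (median 0.55), and of the cardiac list 2 of 4 were tested and 0 called (median 1.26), with miR-208a-3p at 0 in all 35 libraries. The summed levels of all these lists overlapped between the strains. The exception was the brain list, at 31.0 to 126 RPM in C3H sham and 4.06 to 22.1 RPM in C57 sham, which rested on miR-9-5p, while miR-124-3p was at 0 in 34 of 35 RBC libraries. Whether what carried miR-9-5p had a part in the miR-31-5p difference was not tested.

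**Figure D1:**
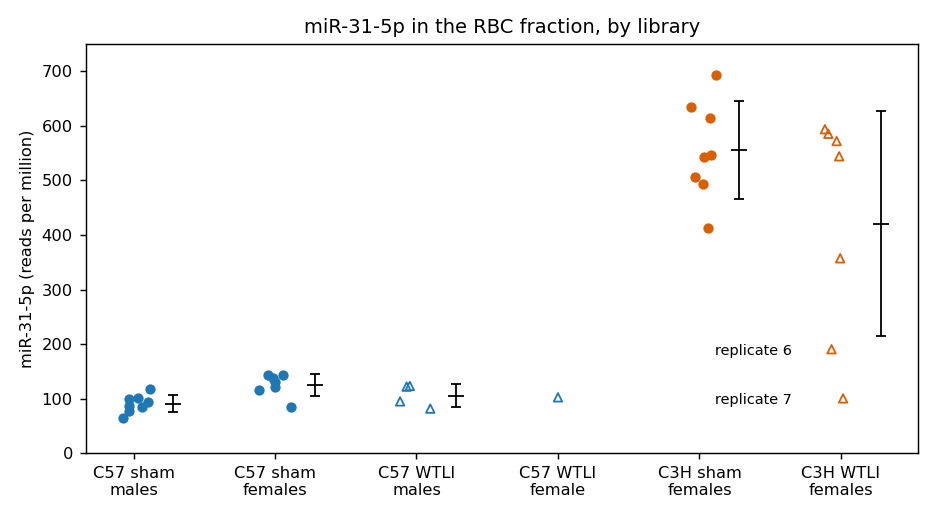
miR-31-5p in each RBC library, in RPM on a linear axis, by strain, irradiation and sex, with 1 point per library (circles sham, triangles WTLI) and bars for the group mean and SD. The 8 C3H sham libraries sit between 413 and 693 RPM, all above the C57 sham libraries at 65.1 to 144 RPM, and the C3H WTLI replicates 6 and 7 lie lower, at 191 and 101 RPM.

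The same separation was seen in WTLI mice in all but 1 C3H library. Among 7 C3H WTLI libraries miR-31-5p ranged from 101 to 594 RPM with a median of 544 RPM, and the 5 C57 WTLI libraries were at 82.1, 95.3, 103, 122 and 124 RPM. In 6 of 7 C3H WTLI libraries miR-31-5p was above every C57 WTLI library, and the exception was replicate 7. The fold between strains was 4.0 with all libraries and 5.04 without replicates 6 and 7, where the C3H mean was 531 ± 98.6 RPM (n = 5).

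In those replicates other RBC miRNAs differed as well. miR-451a, an erythroid miRNA, was at 3562 RPM in replicate 6 and 2463 RPM in replicate 7, against 7511 to 28904 RPM in the other 5 C3H WTLI libraries. miR-486a-5p, also erythroid, was higher there, at 16703 and 22618 RPM against 5049 to 8509 RPM. In the solid tissues of the same mice miR-31-5p was within the range of the other 5 libraries, at 713 and 971 RPM in lung, 253 and 264 RPM in heart and 728 and 715 RPM in brain. In WBC the mouse of replicate 6 had 616 RPM, within the range of the others, while the mouse of replicate 7 had 195 RPM, below the 310 to 850 RPM of the other 5 C3H WTLI libraries, and its WBC miR-451a, at 1540 RPM, was also the lowest of the 6. The part of library composition in these low values was not tested.

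WTLI was compared with sham irradiation within each strain, with quantile normalised log2 values in limma and Benjamini-Hochberg adjustment over all miRNAs tested in the tissue. In RBC the C3H difference of miR-31-5p was -0.22 on the log2 scale (SE 0.19, limma adjusted p = 0.520), and -0.01 without replicates 6 and 7 (limma adjusted p = 0.998). With the library total alone it was -0.62, where the median of all RBC miRNAs was at -0.35. In C57 RBC it was 0.06 (SE 0.21, limma adjusted p = 0.992), and 0.035 without the C57 sham replicate 13. The RBC effect of WTLI in C3H minus that in C57 was -0.29 (SE 0.28, limma adjusted p = 0.864). It was -0.25 without the C57 sham replicate 13 (limma adjusted p = 0.802), and its limma adjusted p was 0.991 without replicates 6 and 7. With each library left out in turn it lay between -0.46 and -0.17. In these 3 contrasts limma called 0% of the 229 RBC miRNAs, with 43, 14 and 12 at an unadjusted p under 0.05. edgeR called 6, 1 and 0 miRNAs and DESeq2 14, 1 and 1, and miR-31-5p was not among them.

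White blood cells of the same mice showed a smaller strain difference in the same direction. Among sham irradiated mice miR-31-5p was at 337, 483, 524, 588 and 945 RPM in the 5 C3H WBC libraries. The 11 C57 sham WBC libraries ranged from 190 to 754 RPM with a median of 277 RPM. All C3H libraries lay above the C57 median but the ranges overlapped, and 1 of 5 lay above every C57 library. Among females alone the strains did not overlap, with the 4 C57 females at 190 to 291 RPM, where 88 of 291 WBC miRNAs (30.2%) had no overlap in that comparison.

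In the fit across all WBC miRNAs the sham strain difference of miR-31-5p was 1.55 on the log2 scale (SE 0.29, limma adjusted p = 0.000174), higher in C3H. That p is not independent of the choice of miR-31, which rested on the RBC strain difference of the same mice. It passed the threshold, as 25.1% of the 291 miRNAs tested in WBC did. After quantile normalisation the C3H values, 9.14 to 9.98 on the log2 scale, no longer overlapped those of C57, 6.93 to 8.91, as was the case for 29 of the 291 miRNAs (9.97%). It was called in 36 of 37 fits, between 0.74 and 1.71, and with C3H and C57 females alone it was 1.66. The exception was scaling by the library total alone, which gave 0.74 (limma adjusted p = 0.0793) where the median of all WBC miRNAs was at -1.09.

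The WBC libraries of the strains also differed in marker lists. The platelet list (miR-126a-3p, miR-199a-3p, miR-24-3p and miR-21a-5p, abundant in but not specific to platelets) summed to 16868 to 38473 RPM in C3H sham and 38775 to 82976 RPM in C57 sham. Where 25.1% of all WBC miRNAs were called, 0 of 4 tested erythrocyte markers were called and 1 of 5 leukocyte markers, miR-223-3p, was lower in C3H. Higher in C3H were 1 of 4 platelet, 1 of 2 cardiac, 1 of 3 epithelial, 1 of 2 keratinocyte and 1 of 1 brain markers tested. Members of a list did not all go 1 way, as with miR-205-5p (2.84 on the log2 scale) and miR-203-3p (-0.98, under the fold minimum) of the keratinocyte list, and miR-199a-3p (1.22, at 6.31 RPM in C3H) and miR-21a-5p (-0.97, under the fold minimum) of the platelet list. miR-208a-3p was at 0 in all 27 WBC libraries. The part of these cells in the miR-31-5p difference was not tested.

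The fractions were also compared within animals, as values only because they include the RBC levels. In C57 sham mice miR-31-5p was lower in RBC than in WBC in 11 of 11 mice, with a median ratio of 0.451, and in C57 WTLI mice in 5 of 5, with a median ratio of 0.359. In C3H sham mice it was higher in RBC in 4 of 5 mice, with a median ratio of 1.21, and in C3H WTLI mice in 2 of 6, with a median ratio of 0.693. Without the RBC replicates 6 and 7 the C3H WTLI median ratio was 1.23, with miR-31-5p higher in RBC in 2 of 4 mice. The C57 order was thus the same in every mouse on the RPM scale, and the C3H order was not. With TMM factors over all libraries miR-31-5p was lower in RBC in 15 of 16 C57 mice and in 6 of 11 C3H mice. On that scale the C3H sham median was higher in WBC (997 RPM) than in RBC (743 RPM), so the direction in C3H depends on the scaling.

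Lung, heart and brain showed no strain difference of miR-31-5p past the threshold. In lung the C3H sham libraries ranged from 491 to 787 RPM with a median of 724 RPM, and the C57 sham libraries from 329 to 1053 RPM with a median of 628 RPM. In heart they ranged from 144 to 241 RPM (median 175 RPM) in C3H and from 121 to 265 RPM (median 155 RPM) in C57. In brain they ranged from 552 to 887 RPM (median 654 RPM) in C3H and from 498 to 802 RPM (median 627 RPM) in C57. The strains overlapped over most of their range in each of these organs.

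The fitted C3H minus C57 difference of miR-31-5p was 0.26 on the log2 scale in lung (SE 0.14, limma adjusted p = 0.170), where 4.86% of miRNAs were called. It was -0.02 in heart (SE 0.20, limma adjusted p = 0.966), where 4.49% were called, and 0.19 in brain (SE 0.11, limma adjusted p = 0.374), where 2.31% were called. Among females alone the heart difference was -0.55 (limma adjusted p = 0.0347), under the fold minimum and lower in C3H. The C3H sham hearts in that comparison were themselves split by letter, at 144 to 172 RPM in A and 179 to 241 RPM in B. miR-31-3p differed by -0.59 in lung (limma adjusted p = 0.106), -0.31 in heart (limma adjusted p = 0.507) and 0.26 in brain (limma adjusted p = 0.664).

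**Figure D2:**
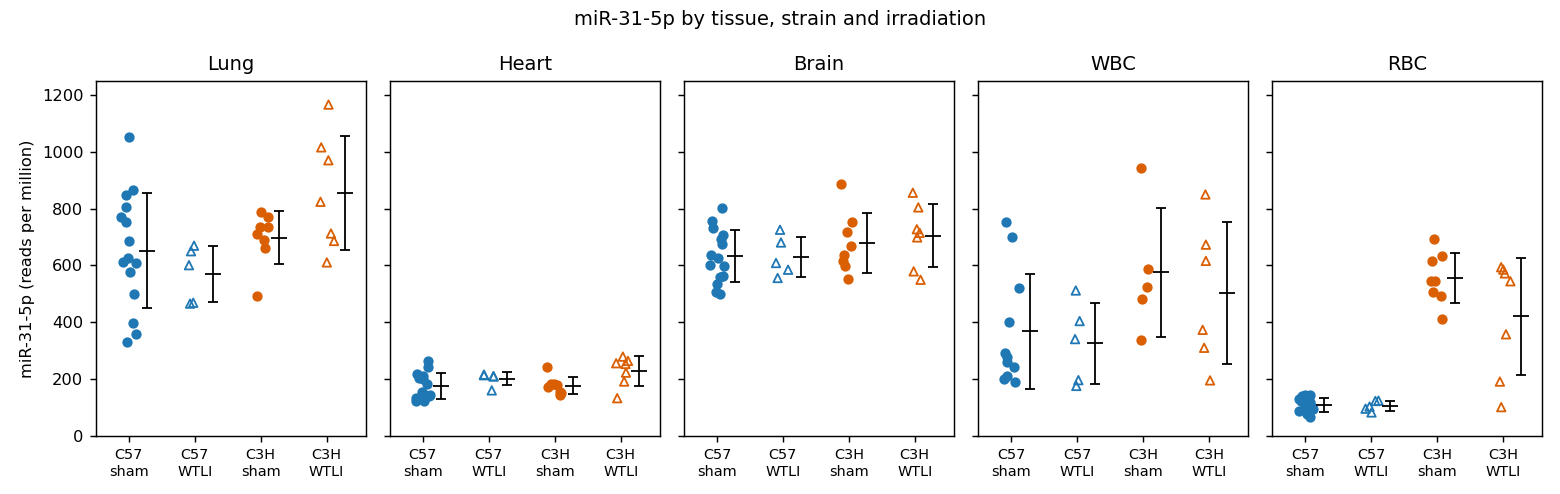
miR-31-5p in every library of the 5 tissues, in RPM on a linear axis, by strain and irradiation, with 1 point per library (circles sham, triangles WTLI) and bars for the group mean and SD. Strain groups overlap in lung, heart and brain, lie partly apart in WBC and are separate in sham RBC, where the means are 556 RPM in C3H and 107 RPM in C57.

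The order of tissues differed by strain. In C3H sham mice the medians fell from lung (724 RPM) through brain (654 RPM), RBC (545 RPM) and WBC (524 RPM) to heart (175 RPM). In C57 sham mice they fell from lung (628 RPM) through brain (627 RPM), WBC (277 RPM) and heart (155 RPM) to RBC (101 RPM). RBC was thus the third of the 5 in C3H and the last in C57.

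Neighbours in this order were compared within animals by exact two-sided sign-flip permutation tests, adjusted over 8 pairs. Pairs with RBC are given as values, but they were among the 8, so the adjusted p-values draw in part on RBC levels. Lung and brain did not differ beyond their spread in C3H (0.04 on the log2 scale, higher in lung in 5 of 8 mice, exact permutation adjusted p = 0.768) or in C57 (-0.01, 7 of 15 mice, exact permutation adjusted p = 0.893). In C57 brain was 0.99 above WBC (10 of 11 mice, exact permutation adjusted p = 0.0130) and WBC 1.00 above heart (10 of 11 mice, exact permutation adjusted p = 0.00781). Before adjustment these exact permutation p-values were 0.0049 and 0.0020. In C3H WBC was 1.69 above heart in 5 of 5 mice with no overlap, where 5 mice allow no p under 0.0625 before adjustment (exact permutation adjusted p = 0.1).

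Pairs with RBC followed the medians in most mice. In C3H brain was 0.29 above RBC on the log2 scale in 7 of 8 mice and RBC 0.12 above WBC in 4 of 5 mice, and in C57 heart was 0.70 above RBC in 15 of 15 mice. The order rests on the share of each library and depends on scaling across tissues. With TMM factors over all libraries the order of medians was WBC (997), RBC (743), lung (663), brain (326) and heart (186 RPM) in C3H, and lung (607), WBC (330), brain (295), heart (190) and RBC (152 RPM) in C57. On that scale lung was above brain by 1.1 on the log2 scale in C3H (8 of 8 mice, exact permutation adjusted p = 0.0125) and by 0.95 in C57 (exact permutation adjusted p = 0.00049), so that the lung and brain comparison depends on the scaling, and brain no longer lay above WBC in C57 (-0.20, exact permutation adjusted p = 0.36). RBC was last in C57 on both scales.

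WTLI moved neither arm past the threshold in any tissue. In lung the 7 C3H WTLI libraries ranged from 611 to 1167 RPM of miR-31-5p (median 824 RPM), and the 5 C57 WTLI libraries were at 466, 469, 601, 650 and 670 RPM. Both sets overlapped the sham libraries of their strain. The differences were -0.06 on the log2 scale in C3H (SE 0.17, limma adjusted p = 0.828), where 9.71% of lung miRNAs were called, and -0.27 in C57 (SE 0.17, limma adjusted p = 0.260), where 6.00% were called.

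In brain the C3H WTLI libraries ranged from 550 to 856 RPM (median 715 RPM), and the C57 WTLI libraries were at 556, 585, 609, 681 and 726 RPM. In WBC the 6 C3H WTLI libraries ranged from 195 to 850 RPM (median 495 RPM), and the C57 WTLI libraries were at 175, 196, 340, 404 and 512 RPM. All these groups overlapped their sham groups. The miR-31-5p differences were 0.04 in C3H brain (SE 0.13, limma adjusted p = 0.997), 0.07 in C57 brain (SE 0.13, limma adjusted p = 0.828), 0.01 in C3H WBC (SE 0.32, limma adjusted p = 1) and -0.09 in C57 WBC (SE 0.29, limma adjusted p = 0.991). In these contrasts limma called 0% of miRNAs, with 9 and 53 in brain and 20 and 12 in WBC at an unadjusted p under 0.05; edgeR called 0 and DESeq2 called 2 in C57 brain, neither of them miR-31.

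Over the 5 tissues and both strains, 0 of 10 contrasts of miR-31-5p and 0 of 6 of miR-31-3p passed limma's threshold, and 0 of either reached an unadjusted p under 0.05 in the 4-group fits of limma with quantile normalisation, edgeR and DESeq2. Other limma fits gave such a p for miR-31-5p in 1 of 10 contrasts with TMM, in 2 of 10 with the library total alone and in 1 of 5 in each fit of C57 males, and for miR-31-3p in 1 of 6 with the library total alone. Over all 438 fits of miR-31-5p and 270 of miR-31-3p run with other settings, 0 were called, and the lowest adjusted p was 0.0660 for 5p and 0.102 for 3p. The difference of the effect of WTLI between strains was also not called, in 0 of 5 tissues for miR-31-5p and 0 of 3 for miR-31-3p, where 0.286% of lung miRNAs and 0% in the other tissues were called. The fits do not show that WTLI left miR-31 unaltered, since the SE of a single contrast of miR-31-5p ran from 0.13 to 0.32 on the log2 scale.

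**Figure D3:**
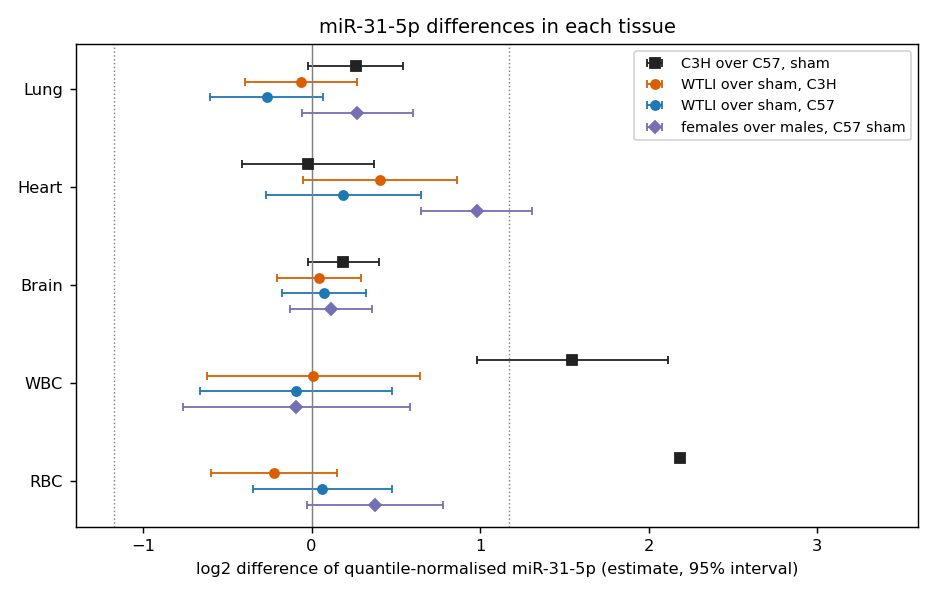
Fitted differences of miR-31-5p on the log2 scale with bars for 95% normal intervals (none for strain in RBC, the value the miRNA was chosen on), by tissue, for strain in sham mice, for WTLI in each strain and for sex in C57 sham mice, with dotted lines at the fold minimum (1.17). The strain value is 2.18 in RBC and 1.55 in WBC, whose bar does not include 0, the bars of all 10 WTLI contrasts include 0, and the heart value of the sex contrast (0.98) is away from 0 but inside the dotted line.

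In heart WTLI and sham values of miR-31-5p overlapped over all mice of a strain. The 7 C3H WTLI libraries ranged from 132 to 279 RPM with a median of 253 RPM, and the 5 C57 WTLI libraries were at 160, 209, 210, 213 and 215 RPM. The fitted differences were 0.41 in C3H (SE 0.23, limma adjusted p = 0.210), where 6.73% of miRNAs were called, and 0.19 in C57 (SE 0.23, limma adjusted p = 0.776), where 0.962% were called. The C57 groups differed in their share of males. Among males alone the 4 WTLI hearts, at 160, 209, 210 and 213 RPM, lay above all 8 sham hearts, at 121 to 155 RPM, a fold of 1.44, where 17 of 312 heart miRNAs (5.45%) had no overlap in the same comparison. That difference was 0.63 on the log2 scale in a fit without the C57 females, which kept the C3H libraries (SE 0.22, limma adjusted p = 0.127). It was 0.63 in the fit with sex as part of the group (SE 0.20, limma adjusted p = 0.0660), so it did not pass the threshold.

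In C57 sham hearts miR-31-5p was 1.57 times as high in females as in males. The 7 females ranged from 183 to 265 RPM with a median of 211 RPM, and the 8 males from 121 to 155 RPM with a median of 141 RPM. The sexes did not overlap, and they did not overlap within letter A (fold 1.55, 4 females and 4 males) or within letter B (fold 1.59, 3 females and 4 males) either, where 41.7% and 54.2% of heart miRNAs had no overlap. The means were 217 ± 27.8 RPM (n = 7) and 138 ± 12.1 RPM (n = 8), and 75 of the 312 heart miRNAs (24%) had no overlap between the sexes.

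The fitted difference, females minus males, was 0.98 on the log2 scale (SE 0.17, limma adjusted p = 0.000391), under the fold minimum, so miR-31-5p was not among the 8.33% of heart miRNAs called; 39.4% passed on adjusted p alone. It was 0.65 when scaled by library total alone (limma adjusted p = 0.00109). miR-31-3p went the other way, at 1.80 ± 0.693 RPM in females and 5.18 ± 1.21 RPM in males, with a fitted difference of -1.02 (SE 0.29, limma adjusted p = 0.00869). The 3p difference was under the fold minimum with quantile normalisation, and it was called by limma with TMM (-1.19) or the library total alone (-1.5), by edgeR (-1.18) and by DESeq2 (-1.24).

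In the other tissues the sexes of C57 sham mice did not differ past the threshold in miR-31-5p. The difference was 0.38 in RBC (limma adjusted p = 0.187; 0.48 and limma adjusted p = 0.114 without the C57 replicate 13), where 7.42% of miRNAs were called, and -0.09 in WBC (limma adjusted p = 0.861), where 7.90% were called. It was 0.27 in lung (limma adjusted p = 0.294), where 2.29% were called, and 0.11 in brain (limma adjusted p = 0.516), where 4.16% were called. For miR-31-3p the difference was -0.97 in brain (limma adjusted p = 0.0111), under the fold minimum, where 22.9% passed on adjusted p alone, and -0.85 in lung (limma adjusted p = 0.0528). Without the 3 brain libraries that stood apart the 3p difference in brain was -0.58 (limma adjusted p = 0.309), where the females of letter B had 3.16 RPM and those of letter A 6.08 RPM, and the males 11.6 and 8.99 RPM.

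C3H sham hearts, all female, split by the letter in their labels, an observation made after the values were seen and given as values only. The 4 libraries of letter A were at 144 to 172 RPM and the 4 of letter B at 179 to 241 RPM, with no overlap and a fold of 1.26, where 136 of 312 heart miRNAs (43.6%) had no overlap between the letters. On the first principal component of all heart libraries (38.8% of the variance) 8 of 8 C57 sham males lay below 0 and 7 of 7 C57 sham females above it, while 4 of 4 C3H sham females of letter A lay below 0 and 4 of 4 of letter B above it. A separation of heart libraries thus went with sex in C57 and with letter within C3H females, and its part in the miR-31-5p values was not tested. Within letter B the C3H WTLI hearts, at 253 to 279 RPM, did not overlap sham (fold 1.34), as 21.8% of heart miRNAs did not, and within letter A, at 132, 191 and 222 RPM, they did (fold 1.17).

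**Figure D4:**
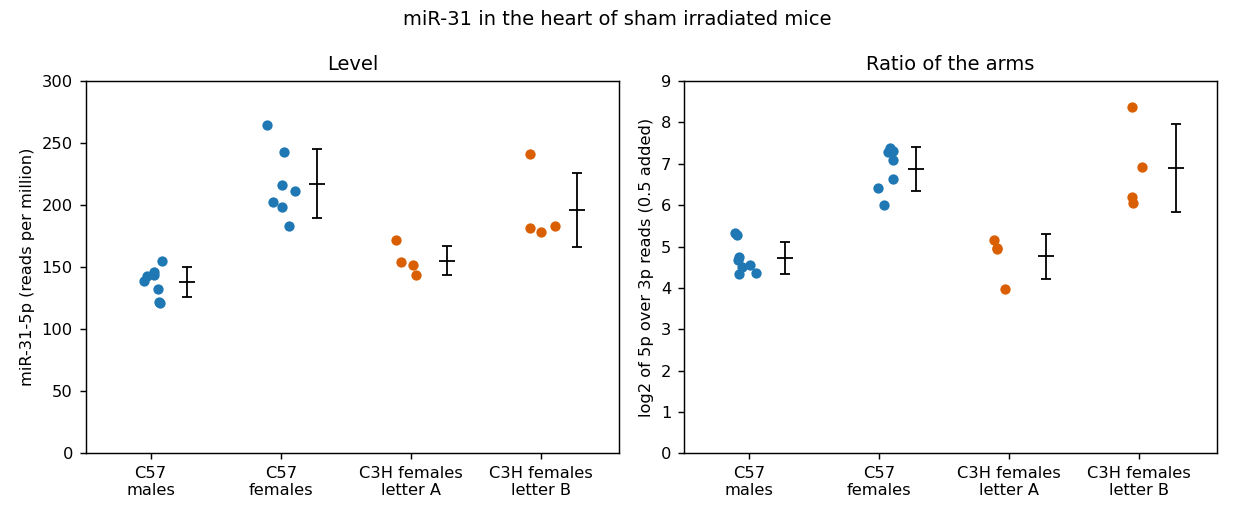
miR-31-5p in RPM (left) and the log2 ratio of 5p to 3p reads (right), on linear axes, in each sham heart library of C57 males, C57 females and C3H females of letter A and B, with bars for the group mean and SD. C57 sham females (183 to 265 RPM) lie above C57 sham males (121 to 155 RPM), and C3H sham libraries of letter A (144 to 172 RPM) lie below those of letter B (179 to 241 RPM).

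The arms were compared within libraries, as the log2 ratio of 5p to 3p counts with 0.5 added to each, which does not depend on scaling. Shares are pooled over all libraries of a strain. The 5p arm was the abundant one in every tissue. The 3p arm made up 2.01% of the miR-31 counts in C57 hearts and 1.63% in C3H hearts, 1.27% and 0.988% in brain, and 0.812% and 0.556% in lung. In blood it was rarer, with 64 of 21481 miR-31 counts in C57 WBC, or 0.298% (exact 95% binomial interval 0.230 to 0.380%), and 4 of 28873 in C3H WBC, or 0.0139% (0.00377 to 0.0355%). In RBC it was seen in 4 of 35 libraries, with 3 of 7952 counts in C57 and 1 of 22954 in C3H. These intervals cover counting error only.

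Between strains of sham mice the ratio differed past the threshold in WBC, among 4 tissues tested by exact two-sided permutation. There it was 11.7 ± 1.29 in C3H (n = 5) and 8.53 ± 1.82 in C57 (n = 11), a difference of 3.15 (exact permutation adjusted p = 0.0174), with 2 of 5 C3H libraries above every C57 library. No 3p read was found in 4 of 5 C3H and 2 of 11 C57 sham WBC libraries, and there the ratio is set by the 5p count and the 0.5 added. Among females alone, a comparison added after the values were seen, the difference was 3.15 with an exact permutation adjusted p = 0.0635, and without C3H sham WBC replicate 5 it was 2.77 with an exact permutation adjusted p = 0.0586. The ratios were 7.78 and 7.03 in lung (difference 0.75, exact permutation adjusted p = 0.183), 5.83 and 5.72 in heart (0.10, exact permutation adjusted p = 0.850) and 6.39 and 6.46 in brain (-0.07, exact permutation adjusted p = 0.850). Among females alone the differences were 0.081 in lung (exact permutation adjusted p = 0.860), -1.04 in heart (exact permutation adjusted p = 0.111, 1 of 8 C3H libraries above the C57 median) and -0.76 in brain (exact permutation adjusted p = 0.0635, 0 of 8 above the C57 median).

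Between sexes of C57 sham mice the ratio is given as values only, since the comparison was added after the opposite sex differences of the arms in heart were seen. In heart it was 6.87 ± 0.537 in 7 females and 4.72 ± 0.387 in 8 males, with 7 of 7 females above every male. In brain it was 7.15 ± 0.748 and 5.87 ± 0.356, with 6 of 7 females above every male. The 3 brain females of letter B, whose libraries stood apart, averaged 7.83 and the 4 of letter A 6.63, against 5.68 and 6.06 in the males of these letters. In lung it was 7.70 ± 0.931 and 6.44 ± 0.825, with 6 of 7 above every male. In WBC it was 8.53 in both sexes. In C3H sham hearts the ratio was 4.76 in letter A and 6.89 in letter B with no overlap, so it split with the letter as the 5p level did.

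**Figure D5:**
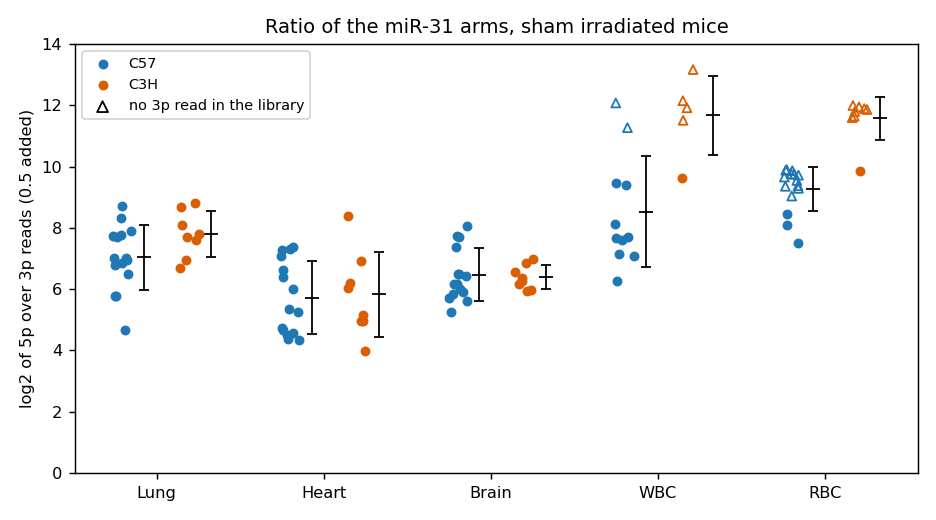
Log2 ratio of miR-31-5p to miR-31-3p counts (0.5 added to each) in each sham library, by tissue and strain, with open triangles for libraries without a 3p read and bars for the group mean and SD. The strains overlap in lung, heart and brain, and in WBC the C3H sham libraries average 11.7 against 8.53 in C57.

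The list of 10 miRNAs known to act in lymphocytes was followed in the same contrasts, all 10 members being tested in every tissue. In the RBC strain contrast 0 of 10 were called (median -0.25 on the log2 scale, where all miRNAs had 0.01), against 10.5% of all miRNAs. In the WBC strain contrast 1 of 10 was called, miR-27a-3p, which acts in T cell differentiation, lower in C3H by -2.50 on the log2 scale (SE 0.30, limma adjusted p = 5.69e-07), with a list median of -0.38 against -0.04 and 25.1% of all WBC miRNAs called. miR-31-5p, higher in C3H there by 1.55, was not a member of the list.

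After WTLI 1 of 10 members was called in C3H lung, where 9.71% of all miRNAs were, and 2 of 10 in C3H heart, in opposite directions, where 6.73% of all miRNAs were. miR-21a-5p, induced in many forms of tissue injury, was higher by a log2 value of 1.5 in lung of C3H mice (SE 0.41, limma adjusted p = 0.00509) and by 1.33 in C3H heart (SE 0.19, limma adjusted p = 1.68e-06). miR-150-5p, a miRNA of mature lymphocytes, fell by 1.63 on the log2 scale in C3H heart (SE 0.16, limma adjusted p = 1.42e-09). The other WTLI contrasts, in C57 lung and heart and in brain, WBC and RBC of both strains, called 0 of 10 by limma, where 6.00% of all miRNAs were called in C57 lung, 0.962% in C57 heart and 0% in the other 6 contrasts. At an unadjusted p under 0.05 were 12 of their 80 values, and 12.1% of all 2568 values in these contrasts. In the strain contrasts of solid tissues the list had 1 call, miR-155-5p in brain (-1.38 on the log2 scale, limma adjusted p = 0.00484), where 2.31% of all miRNAs were called, against 4.86% in lung and 4.49% in heart. Between sexes of C57 sham mice, females minus males, miR-150-5p was called in WBC (-2.61, limma adjusted p = 0.000134) and in RBC (-2.19, limma adjusted p = 2.06e-06), and miR-21a-5p in lung (-1.18, limma adjusted p = 0.0487). The shares of all miRNAs called between sexes were 7.90% in WBC, 7.42% in RBC and 2.29% in lung.

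Likeness was described in 2 ways, to name the miRNAs whose levels were nearest to those of miR-31-5p. Over the 20 group means, among 400 miRNAs, the highest Pearson r were those of let-7b-5p (0.72), miR-375-3p (0.71), miR-669c-5p (0.71), miR-146b-5p (0.70) and miR-26a-1-3p (0.69). Without the RBC groups r was 0.91 for let-7b-5p and 0.81 for miR-375-3p over 16 means. These points share tissues and library composition. miR-31-3p, from the same hairpin, was 191st of 400 with an r of 0.39.

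Within groups, over deviations of the 35 RBC libraries from their group means, the highest r among 228 miRNAs were those of miR-185-5p (0.86), miR-101a-3p (0.82), miR-322-5p (0.79), miR-421-3p (0.76) and miR-101c (0.75). Much of this rested on the C3H WTLI replicates 6 and 7, and over the 33 libraries without them r was 0.60, 0.54, 0.50, 0.42 and 0.41. The libraries share depth and composition effects, so these are given with no test.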

How the data were processed

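Small RNA libraries were trimmed and aligned by the authors in BaseSpace to mouse miRNAs (mm10), and the deposited tables hold raw counts per mature miRNA and library, 1 table per tissue. Whether molecular identifiers were used in counting is not given in the sources used here, so intervals cover counting error only. RPM scale each count to its library's total. Libraries held between 1794995 (brain) and 7865102 (WBC) counts, and 3 counts correspond to 0.638 to 1.19 RPM in RBC. Where nothing but separate animals is stated, p-values measure the spread between mice.

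Each tissue was fitted in limma 3.58.1 (R 4.3.3) with voom and quantile normalisation, 4 groups (strain by irradiation), and 6 groups for sex, after edgeR's filter (10 counts, total of 15). Strain contrasts are C3H minus C57. A call was an adjusted p (Benjamini-Hochberg) under 0.05 with a difference of at least 1.17 on the log2 scale. Arm ratios between strains and tissue orders used exact permutation tests (SciPy 1.17.1). Alternatives were edgeR 4.0.16, DESeq2 1.42.0, TMM, library total alone, other filters, no fold minimum and letter as covariate. Further ones were females alone, C57 males with the C57 females left out and each library left out. Named miRNAs were both arms, the marker and lymphocyte lists, the 5 most alike in each likeness measure and the neighbours in the RBC strain ranking. Members and lists were chosen with earlier results of these data known. Pairs of RBC were fixed as tests and stayed in the adjustment, but are printed as values, because RBC levels chose the miRNA.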

Additional observations from a re-analysis of the deposited data

Results flagged for a closer look

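By Dixon's ratio of a sample's gap to its group's range, 4 values were far from their group among 33 groups of 4 to 10 libraries tested, where chance flags about 1 in 20. The C3H sham lung replicate 2 had 491 RPM of miR-31-5p, and the nearest of the other 7 libraries had 663 RPM. The C57 WTLI heart replicate 1 had 160 RPM, and the nearest of the other 4 had 209 RPM. The C3H sham heart replicate 7 had 241 RPM, and the nearest of the other 7 had 184 RPM. The log2 arm ratio of C3H WTLI brain replicate 2 was 9.42, and the nearest of the other 6 was 7.26. That library was at a robust z of 2.68 on the first principal component of brain.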

How the results depend on the processing

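Of the fitted differences of miR-31-5p, those that turned were at most 0.11 in size, while some arm ratios and tissue orders turned by more. On the log2 scale, the WTLI difference of miR-31-5p in C3H lung (-0.06) became 0.0083 in edgeR, 0.023 in DESeq2 and 0.27 with the library total alone. That in C57 brain (0.07) became -0.0054 in edgeR, that in C3H WBC (0.01) became -0.0041 with TMM and -0.28 with the library total, and that in C57 RBC (0.06) became -0.032 in DESeq2 and -0.0036 with the library total. The strain difference of these effects in brain (-0.03) became 0.10 in edgeR, 0.074 in DESeq2, 0.090 with TMM and 0.052 with the library total, and that in WBC (0.10) became -0.16 with the library total. The WTLI difference of miR-31-3p became -0.36 in C57 lung and -0.13 in C57 heart among males, with the C57 females left out or in 6 groups, and 0.0079 in C3H heart with the loose filter. The strain difference in heart became 0.026 for 5p with the library total, and 0.0097 with the library total and 0.22 in females for 3p. Calls changed for the 5p strain difference in WBC, 0.74 and no longer called with the library total, and for the 5p sex difference in heart, 0.98 and called with no fold minimum. The 3p sex difference in heart (-1.02) became called in edgeR (-1.18), in DESeq2 (-1.24), with TMM (-1.19), with the library total (-1.5) and with no fold minimum, and that in brain (-0.97) with no fold minimum. Without the 3 brain libraries that stood apart, chosen after seeing the data, the sex difference of 5p in brain (0.11) became -0.015 and the strain difference of 3p (0.26) became -0.0013. The RBC strain fold of 5.18 became 4.17 without miR-16-5p. The strain difference of the arm ratio became -1.04 in heart and stayed 3.15 but lost its call in WBC in females alone. With TMM over all libraries, lung over brain became 1.1 in C3H and 0.95 in C57, both past the threshold, brain over RBC -1.33 and RBC over WBC -0.24 in C3H, and brain over WBC -0.20 in C57. The causes were not tested. Of 225 counts of called miRNAs 63 moved by over 1.5 times. In the WBC strain contrast 73 (36 higher and 37 lower in C3H) became 140 (6 and 134) with the library total, 28 with 10 counts in every library, and 133 with no fold minimum, and in RBC 24 became 43 with the loose filter, 8 with the strict one, 12 in females alone and 62 with no fold minimum.

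With each library left out in turn, miR-31-5p WTLI differences lay between -0.17 and 0.023 in C3H lung, -0.022 and 0.11 in C3H brain, -0.11 and 0.14 in C3H WBC, -0.0043 and 0.14 in C57 brain, -0.0044 and 0.13 in C57 RBC, and -0.21 and 0.13 in C57 WBC. Their strain difference lay between -0.094 and 0.047 in brain and -0.12 and 0.24 in WBC. The 5p strain difference in heart lay between -0.10 and 0.067 and the sex difference in WBC between -0.26 and 0.066. The 3p WTLI difference lay between -0.27 and 0.10 in C3H heart and -0.075 and 0.23 in C57 lung. The 3p strain difference kept its sign, between -0.47 and -0.089 in heart and 0.15 and 0.34 in brain. The arm ratio lay between -0.26 and 0.37 (strain, heart), -0.16 and 0.041 (strain, brain), 2.77 and 3.65 (strain, WBC) and -0.91 and 0.59 (sex, WBC). No paired analysis was possible because the strain, sex and WTLI groups of a tissue hold different mice; tissues were compared within mice.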
